A study of Rattus norvegicus with 6 samples.

Results

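The regions described here are 411323 tiles of 1000 nucleotides on the rat autosomes that hold few CpGs, lie away from CpG-dense sequence and are highly methylated in the hippocampus. They were chosen by 4 conditions, of which 1 is a measured level. Each tile had 5 to 19 CpGs listed in any sample, at least 50 reads (coverage summed over its CpGs) in each of the 6 samples, no tile of 30 or more CpGs within 3 tiles on either side, and at least 85% methylated reads when the reads of all 6 samples were pooled. The tiles were 37.5% of the 1095409 tiles that met the other 3 conditions and 30.3% of the 1359223 autosomal tiles with at least 5 CpGs and the same number of reads. They covered 411.3 Mb and held 4268753 CpGs, which was 20% of the 21344245 autosomal CpGs listed in any sample. Because the pooled level chose the tiles, their high methylation is a description, and no test of it is given.

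Whole-genome bisulfite sequencing (WGBS) was performed on 6 hippocampal samples of CD1 Sprague-Dawley rat pups at postnatal day 15. For the 3 iron-deficient replicates the dams received 4 ppm iron between gestational day 2 and postnatal day 7 and 200 ppm from then on. For the 3 iron-sufficient replicates the dams received 200 ppm throughout. Each group comprised 3 rats as biological replicates. Whether they came from separate litters and which libraries were paired-end are not stated in the sources used here. The p-values measure the spread between these 6 samples.

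Bisulfite turns unmethylated cytosines into uracils that are read as thymines, while 5-methylcytosine and 5-hydroxymethylcytosine both resist it and are read alike. In mammals, DNMT3A and DNMT3B place methyl groups on CpGs, and DNMT1 copies them to the new strand after replication. Most of the genome outside CpG islands is methylated, and because methylated cytosines deaminate to thymine, it has become poor in CpGs. CpG islands, where CpGs are dense, are usually kept free of methylation. The term distal refers here only to the distance from CpG-dense tiles. Genes, exons and repeats of rn4 were not used here, so the position of the tiles relative to genes is not described.

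The 6 files listed 16699344 to 21093430 CpGs each, with a total coverage of 432692526 to 780127386 reads over CpGs and a median coverage of 17 to 33 reads per CpG. In the distal methylated tiles, coverage per CpG ranged from 19.7 reads in iron-deficient replicate 3 to 36.0 in iron-deficient replicate 2. The median tile had 175 reads in the former and 314 in the latter. Pooling reads gave the deeper samples more weight in the choice of tiles, since iron-deficient replicate 2 supplied 22% of the reads in them and iron-deficient replicate 3 supplied 12%.

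The pooled methylation of the tiles had a median of 89.7%. At least 90% was reached by 194295 tiles (47.2%) and at least 95% by 35967 (8.74%). In 55 tiles all reads of all samples were methylated. These tiles held 5 to 11 CpGs and 469 to 1517 reads in total. The most deeply covered of them lay on chromosome 17 from 23227001 to 23228000 (rn4), with 11 CpGs and 292, 184 and 310 reads in iron-sufficient replicates 1, 2 and 3 and 277, 157 and 297 reads in the iron-deficient replicates. The threshold of 85% cut through a continuous distribution. Between 85% and 86% lay 42992 of the tiles, and 41507 otherwise equal tiles lay between 84% and 85%. A tile just inside, on chromosome 1 from 6316001 to 6317000, had a pooled level of 85%, with 83.1%, 75.8% and 89.15% in the iron-sufficient and 89.2%, 96.25% and 77.0% in the iron-deficient replicates. A tile just outside, on chromosome 1 from 177159001 to 177160000, had 79.7%, 85.4% and 89.3% in the iron-sufficient and 86%, 86.7% and 76.7% in the iron-deficient replicates, and a pooled level of 84.999%.

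A tile that was highly methylated in the pool was often below 85% in a single sample. In 81164 tiles (19.7%) all 6 samples had at least 85%, in 134307 (32.7%) 5 samples did, and in 126479 (30.7%) 4 samples did. In 59348 tiles (14.4%) 3 samples did, in 9721 (2.36%) 2 did and in 304 (0.0739%) a single sample did. The lowest of the 6 samples had a median of 78.9%, and in 341928 tiles (83.1%) every sample had at least 70%. A level under 50% in at least 1 sample was found in 5936 tiles (1.44%).

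**Figure D1:**
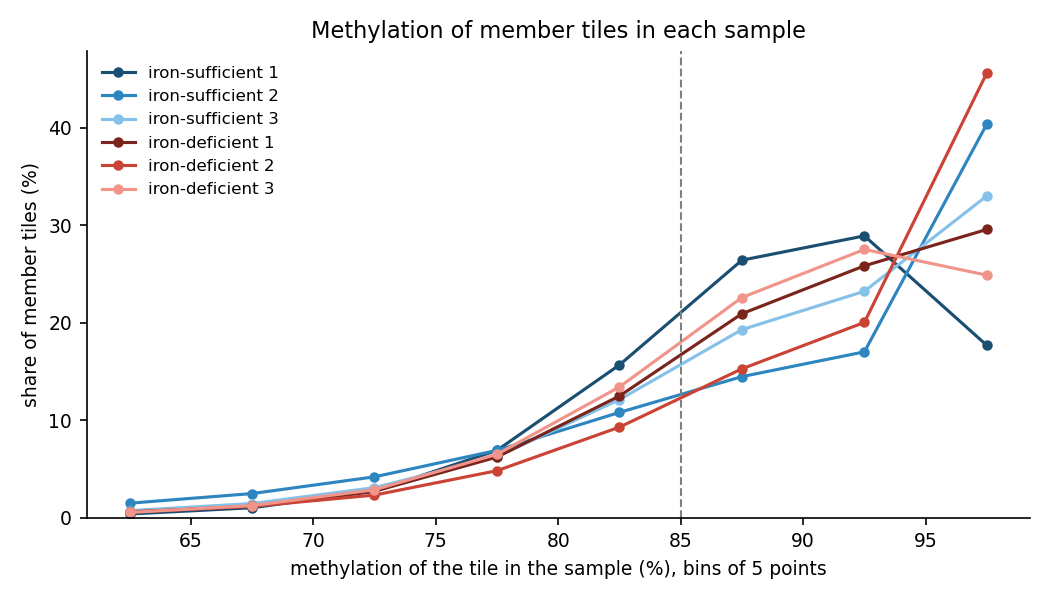
Share of the distal methylated tiles, here named member tiles (y axis, percent) in bins of 5 percentage points of their methylation in a single sample (x axis, percent, shown from 60), with 1 line per sample, blue for iron-sufficient and red for iron-deficient pups, and a dashed line at 85%. Iron-sufficient replicate 1 peaks between 90% and 95% with 28.9% of the tiles, whereas iron-sufficient replicate 2 and iron-deficient replicate 2 have 40.4% and 45.6% of the tiles at 95% or more.

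The distribution over tiles differed widely between libraries of the same diet. The quartiles of tile methylation were 84.5% and 93.6% in iron-sufficient replicate 1 and 83.7% and 98.9% in iron-sufficient replicate 2. The share of tiles in which every read was methylated was 2.39%, 19.6% and 11.4% in iron-sufficient replicates 1, 2 and 3. In the iron-deficient replicates it was 6.87%, 16.3% and 5.29%. Iron-sufficient replicate 2 also had the most tiles under 50%, with 3175 compared with 138 in iron-sufficient replicate 1. The order of the 6 libraries by the share of fully methylated tiles was the reverse of their order by the number of CpGs listed, which was 21093430, 16699344 and 19163614 in the iron-sufficient and 20142195, 18258144 and 20339996 in the iron-deficient replicates. What part the number of CpGs listed had in this result was not tested.

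The spread between the 6 samples fell with depth. The standard deviation over the samples had a median of 7.32 percentage points (quartiles 5.36 and 9.76). In the 148959 tiles whose shallowest sample had 50 to 99 reads, the median was 8.65 percentage points, where counting alone gives 2.47. In the 7386 tiles with at least 400 reads in every sample, it was 4.84, where counting gives 1.22. Several reads can stem from 1 molecule, which no identifier marked here, and a read over several CpGs is counted at each of them, so the counting error given here is a lower limit. The spread also fell with the number of CpGs, from 9.11 percentage points in tiles of 5 CpGs to 5.54 in tiles of 19. Similarly, all 6 samples reached 85% in 16.5% of the tiles of 5 to 7 CpGs and in 25.5% of those of 16 to 19. Coverage per CpG was similar, at 28.8 reads in tiles of 5 CpGs and 29.5 in tiles of 19. Tiles with more CpGs thus also held more reads, and the parts of depth and of CpG number were not separated here.

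To ask whether iron deficiency shifted the methylated background of the hippocampal genome, the mean over the 411323 tiles was compared between the groups. It was 88.5%, 89.4% and 89.9% in iron-sufficient replicates 1, 2 and 3 and 89.8%, 91.7% and 89.2% in the iron-deficient replicates. Values of both groups overlapped, and iron-deficient replicate 2 stood above the other 5 samples. The means were 89.3% ± 0.701 (SD, n = 3) and 90.2% ± 1.27 (SD, n = 3), and the groups differed by 0.966 percentage points, less than the SD of the iron-deficient replicates. The two-sided exact permutation test gave p = 0.5, and with 3 against 3 it cannot give less than 0.1. Without iron-deficient replicate 2 the difference was 0.254 percentage points.

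The pooled level that chose the tiles includes the sample whose level is then given. Therefore each sample was also read in the tiles that the pooled level of the other 5 samples would choose, which were 403801 to 421392 tiles. This alternative was added after the values had been seen. The means then were 87.4%, 86.5% and 87.6% in the iron-sufficient and 87.8%, 88.5% and 88.2% in the iron-deficient replicates. They were lower by 1.02 to 3.19 percentage points than in tiles that the sample had helped to choose, and the fall was largest in iron-deficient replicate 2. The groups no longer overlapped, with 87.2% ± 0.59 (SD, n = 3) and 88.2% ± 0.31 (SD, n = 3), a difference of 0.996 percentage points (two-sided exact permutation test, p = 0.1, the smallest possible). Here each sample was read in its own set of tiles. The sets held 417091, 421392 and 414722 tiles for the iron-sufficient and 413834, 403801 and 411340 for the iron-deficient replicates. Leaving out a sample of low level raises the pool of the others, so more tiles of lower level can pass. This choice can thus widen differences between samples by itself, so the separation does not decide whether the groups differ. With tiles chosen by the unweighted mean of the 6 samples, the difference was 0.587 percentage points and the groups overlapped.

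A difference of similar size was found over the whole table. Over all 1359223 tiles tested, methylation was 74.8%, 74.3% and 75.1% in the iron-sufficient and 75.2%, 75.8% and 75.8% in the iron-deficient replicates, a difference of 0.892 percentage points (two-sided exact permutation test, p = 0.1). The amount by which the tiles chosen by the other 5 samples exceeded all tiles was 12.4 percentage points ± 0.229 (SD, n = 3) under iron sufficiency and 12.5 ± 0.147 (SD, n = 3) under iron deficiency. The groups differed by 0.104 percentage points in this excess (two-sided exact permutation test, p = 0.7).

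**Figure D2:**
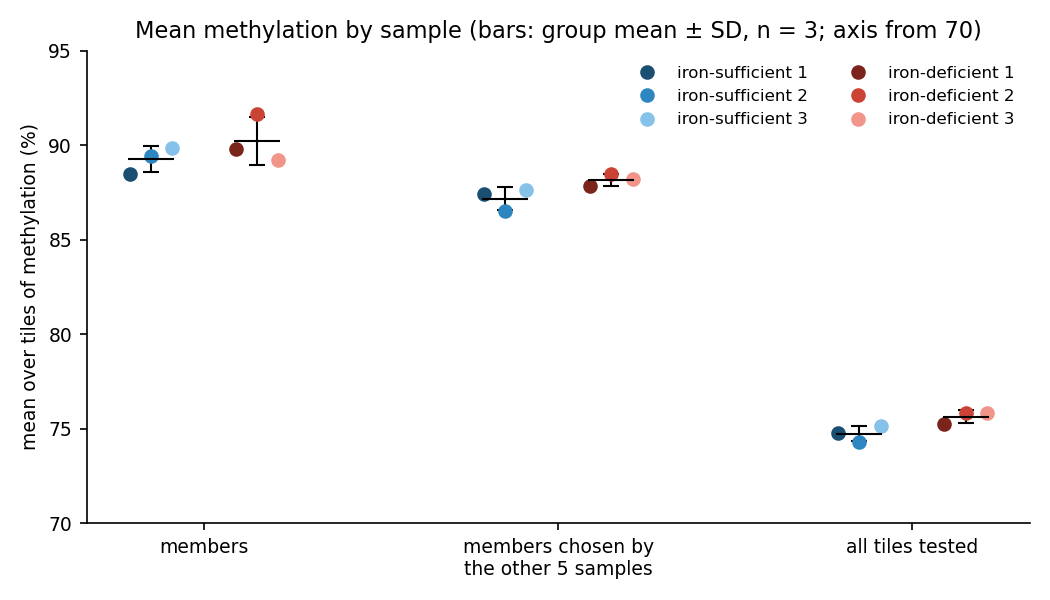
Mean methylation over tiles (y axis, percent, from 70) for the distal methylated tiles (members), the same kind of tiles chosen by the other 5 samples, and all tiles tested. Points are samples and black bars the group mean ± SD (n = 3), and the groups overlap in the first set but not in the other two, where the differences are 0.996 and 0.892 percentage points. In the second set each sample has its own tiles, a choice that can by itself widen differences between samples.

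At single tiles, methylated and unmethylated counts were compared between the diets with edgeR's quasi-likelihood test over all 1359223 tiles. After Benjamini-Hochberg adjustment, edgeR gave a p-value of 0.05 or less for 0 of the 411323 distal methylated tiles and for 0% of the whole table. On simulated data the same test called 0 of 200 tiles with a fall of 20 percentage points and 0 of 200 with 40. With 60 it called 40 of 200. The pooled level that chose the tiles leaves little room for a group to fall by 40 or 60 percentage points. These larger falls thus say little about the distal methylated tiles. Since falls of 20 percentage points were missed, a count of 0 does not show that single tiles did not differ. With limma on log2 ratios of the counts the number was also 0 of 411323 (0% of all tiles). At an unadjusted p-value under 0.05, edgeR gave 11173 distal methylated tiles (2.72%) higher and 5936 (1.44%) lower in the iron-deficient group, compared with 1.77% and 1.01% of all tiles tested. The corresponding numbers with limma were 16641 (4.05%) and 10291 (2.5%), compared with 2.5% and 1.66%. Both tests compare ratios of methylated to unmethylated reads, on which a change of a few percentage points near 100% is large. What part this had in the shares was not tested. The balance of higher and lower tiles depended on single libraries. Without iron-sufficient replicate 1, edgeR gave 1.9% higher and 3.94% lower, and without iron-deficient replicate 3 it gave 4.29% higher and 0.951% lower. The whole table moved in the same direction, with 20337 tiles higher and 30261 lower of 1359223 without the former and 31756 higher and 10830 lower without the latter, compared with 24028 and 13707 with all samples.

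In percentage points, the difference between the group means had a median of 0.826 over the distal methylated tiles, with quartiles of -3.52 and 5.32. Over all tiles tested the median was 0.782, with quartiles of -4.78 and 6.51. At these levels a rise is limited by the ceiling at 100%. The pooled level that chose the tiles also limits how low either group can be. What part either limit had in these differences was not tested. All 3 iron-deficient replicates lay above all 3 iron-sufficient replicates in 24468 of the tiles (5.95%), compared with 5.9% of all tiles. They lay below in 14806 (3.6%), compared with 4.06% of all tiles. With a difference of at least 10 percentage points in addition, 14533 tiles (3.53%) were higher and 7953 (1.93%) lower, compared with 4.37% and 2.97% of all tiles.

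The largest rise among tiles with separated groups was found on chromosome 8 from 92630001 to 92631000 (rn4), which holds 6 CpGs. Methylation there was 86%, 30.1% and 36.5% in iron-sufficient replicates 1, 2 and 3, over 114, 73 and 63 reads. In the iron-deficient replicates it was 96.3%, 100% and 96.5%, over 136 to 228 reads. The iron-deficient replicates were within 4 percentage points of each other, whereas iron-sufficient replicate 1 stood closer to them than to its own group. The difference of 46.7 percentage points was chosen for its size, and its adjusted p-value by edgeR was 1.0.

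A similar pattern was observed at the next largest rises. On chromosome 18 from 70197001 to 70198000, methylation was 90.8%, 38.4% and 32.4% in the iron-sufficient and 98.9%, 100% and 100% in the iron-deficient replicates. On chromosome 7 from 39065001 to 39066000, it was 87.1%, 13.6% and 63.0% in the iron-sufficient and 100%, 100% and 97.4% in the iron-deficient replicates. In the pooled levels of 88.3% and 88.4%, iron-deficient replicate 2 had the most weight, with 398 and 396 reads, compared with 59 to 130 reads in the other samples.

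The largest falls rested on 1 or 2 iron-deficient samples. On chromosome 19 from 33001001 to 33002000, methylation was 88.5%, 100% and 100% in iron-sufficient replicates 1, 2 and 3. The iron-deficient replicates had 79.3%, 0% and 88.5%, where the value of 0% was read from 65 reads over 8 CpGs. On chromosome 5 from 74832001 to 74833000, the iron-sufficient replicates had 90.5%, 100% and 100% and the iron-deficient replicates 82.1%, 13.8% and 88.1%. Iron-deficient replicate 2 was the low sample in both tiles, with 58 reads in the latter. On chromosome 17 from 94332001 to 94333000, iron-deficient replicates 1 and 3 were low, with 44.0% over 91 reads and 52.7% over 93 reads. Iron-deficient replicate 2 had 93.0% over 672 reads there, and the iron-sufficient replicates had 100%, 95.7% and 100%.

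The largest standard deviations over the 6 samples, 39.7 to 40.1 percentage points, were found where 1 sample was at 2.0% or less and the others were methylated. On chromosome 5 from 135392001 to 135393000, iron-sufficient replicate 2 had 0% over 74 reads, and the other samples had 95% to 100%. On chromosome 6 from 98162001 to 98163000, iron-deficient replicate 2 had 0% over 58 reads, and the others had 87.8% to 100%. On chromosome 6 from 119610001 to 119611000, iron-sufficient replicate 2 had 2.0% over 50 reads. In all, 87 tiles (0.0212%) had a sample at no more than 10% beside a sample at 90% or more, and in each of them a single sample was low. The low sample was iron-sufficient replicate 2 in 63 tiles, iron-deficient replicate 2 in 16, iron-sufficient replicate 3 in 7 and iron-deficient replicate 1 in 1. Its median number of reads was 65. A pooled level of at least 85% leaves little room for a second low sample or for a deep one, so both values are descriptions of the tiles chosen. The 2 samples that were low most often are also the 2 with the fewest CpGs listed, and the part of this in the result was not tested.

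Single CpGs within the tiles were then examined. To compare libraries of different depth, each CpG with at least 10 reads was thinned to 10 reads, and the expected shares of CpGs with all, some or none of the 10 reads methylated were computed. All 10 reads were methylated at 62.0%, 79.4% and 75.2% of the CpGs in iron-sufficient replicates 1, 2 and 3 and at 72.2%, 80.1% and 67.0% in the iron-deficient replicates. Mixed reads were found at 37.3%, 16.2% and 22.4% of the CpGs in the iron-sufficient and at 26.0%, 17.1% and 32.1% in the iron-deficient replicates. None of the 10 reads was methylated at 0.705%, 4.36% and 2.41% in the iron-sufficient and at 1.74%, 2.82% and 0.914% in the iron-deficient replicates. The libraries with few mixed CpGs thus had more CpGs at both ends, and in each group the replicates differed far more than the group means did. The group differences were 0.906 percentage points for fully methylated, -0.238 for mixed and -0.668 for unmethylated CpGs (two-sided exact permutation tests, p = 0.9, 1.0 and 0.7). The share of mixed CpGs followed the number of CpGs listed in the library in the same order, from 37.3% with 21093430 CpGs to 16.2% with 16699344. The part of that number in the result was not tested.

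**Figure D3:**
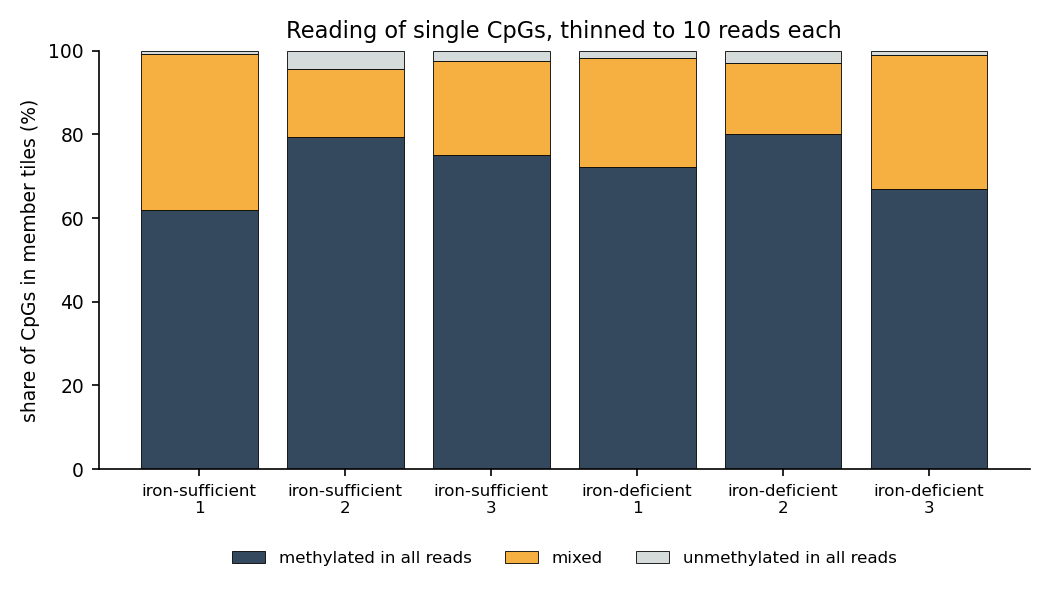
Share of CpGs in the distal methylated tiles (y axis, percent) whose 10 reads would be all methylated, mixed or all unmethylated after thinning, with 1 bar per sample. The mixed share ranges from 16.2% in iron-sufficient replicate 2 to 37.3% in iron-sufficient replicate 1, and both extremes belong to the same diet.

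Of the CpGs in the tiles, 930562 (21.8%) had at least 10 reads in all 6 samples. All pooled reads were methylated at 118544 of them (12.7%), and 95% to just under 100% of the reads at another 277521 (29.8%). Levels of 80% to 95% were found at 400694 CpGs (43.1%) and of 50% to 80% at 127479 (13.7%). CpGs of low methylation were rare in these tiles, which the choice of tiles favours. No more than 20% of pooled reads were methylated at 806 CpGs (0.0866%), and 298 of these were at or below 20% in each of the 6 samples. They lay in 805 tiles, 804 of which held a single such CpG. The exception was a tile on chromosome 12 from 3058001 to 3059000, with 2 low CpGs among 18 and methylation of 82.7%, 72.6% and 91.4% in the iron-sufficient and 83.0%, 87.4% and 87.8% in the iron-deficient replicates. After a low CpG, the next measured CpG of the tile was low in 0.174% of 575 cases, compared with 0.0923% of 611133 cases after another CpG. The former share is 1 case, so a difference was not detectable.

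A CpG at no more than 10% in 1 sample and at least 90% in another was more common. This was observed at 79284 (8.52%) of the CpGs with 10 reads in all samples, compared with 358194 (22%) of 1626623 such CpGs in the other distal CpG-poor tiles. In 72452 (91.4%) of the 79284 CpGs only 1 of the 6 samples was low. That sample was iron-sufficient replicate 2 in 30251 (41.8%) and iron-deficient replicate 2 in 16937 (23.4%), but iron-sufficient replicate 1 in only 1752 (2.42%). Tiles of at least 85% pooled methylation can hold few CpGs that are low in several samples, so these counts, the share with a single low sample and the contrast with the other tiles are descriptions of the tiles chosen.

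Neighbouring CpGs of a tile deviated together only over short distances. For CpGs 2 to 9 nucleotides apart, the differences between the groups had a correlation of 0.188 over 87132 pairs. It was 0.136 for 10 to 24 nucleotides (121320 pairs), 0.0785 for 25 to 49 (110912 pairs) and 0.0356 for 50 to 99 (92648 pairs). At 200 to under 400 nucleotides it was 0.00351 over 68461 pairs. Close CpGs share reads, so these correlations describe the libraries as well as the DNA and are given without a p-value. Between adjacent tiles the correlation of the group differences was 0.00762 over 117493 pairs. A difference in a tile thus gave little information on the tile beside it.

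Adjacent tiles were also compared in their pooled level, which the rule used, so the shares are a description. For single CpGs, the correlation of the pooled level was 0.19 at 2 to 9 nucleotides, 0.0216 at 50 to 99 and -0.0577 at 200 to under 400. The tile that follows a distal methylated tile, where it was also distal, CpG-poor and deep enough, was highly methylated too in 46.4% of 253166 cases. After another distal CpG-poor tile, this was so in 31.6% of 430541 cases. Nevertheless, 214614 of the tiles (52.2%) had no neighbour of their kind, and 18102 (4.4%) lay in runs of 5 or more. The longest run had 16 tiles with 185 CpGs, on chromosome 1 from 12598001 to 12614000 (rn4). Its mean methylation was 90.6%, 92.9% and 94.6% in the iron-sufficient and 91.6%, 92.5% and 92.6% in the iron-deficient replicates, and the groups overlapped. A run of 15 tiles lay on chromosome 1 from 97440001 to 97455000, with 94.2%, 92.9% and 95.2% in the iron-sufficient and 90.6%, 93.2% and 93.3% in the iron-deficient replicates. In the run of 14 tiles on chromosome 8 from 21598001 to 21612000, the iron-deficient replicates had 96.4%, 95% and 96.1% and lay above the iron-sufficient replicates with 94.8%, 93.9% and 94.5% (two-sided exact permutation test, p = 0.1, the smallest possible). The p-values in the runs of 16 and 15 tiles were 0.7 and 0.3 by the same exact permutation test. The runs were chosen for their length.

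**Figure D4:**
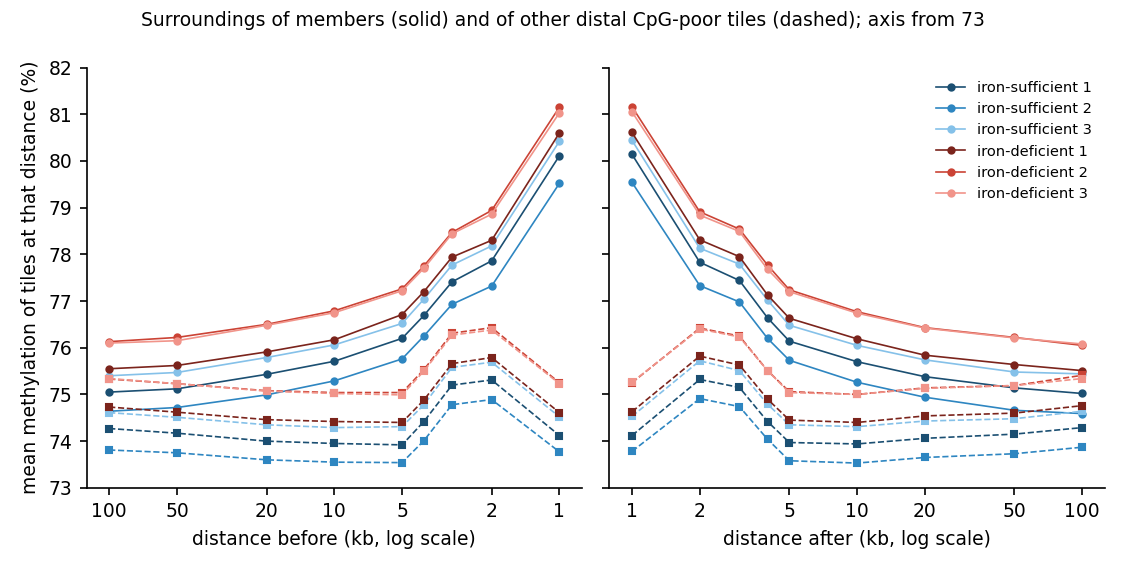
Mean methylation (y axis, percent, from 73) of the tiles with at least 5 CpGs found 1 to 100 tiles (kb, log scale) before and after the distal methylated tiles (members, solid) and the other distal CpG-poor tiles (dashed), with 1 line per sample. In every sample the solid line is above the dashed one at each distance shown and falls with distance, on average from 80.5% at 1 kb after to 75.45% at 100 kb after.

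The surroundings of the tiles include other distal methylated tiles, which were chosen by their own level, so their methylation is given as a description. The tile directly after a distal methylated tile had a mean of 80.5%, compared with 74.6% after another distal CpG-poor tile. The values after a distal methylated tile were 80.1%, 79.5% and 80.4% in the iron-sufficient and 80.6%, 81.2% and 81.1% in the iron-deficient replicates. Corresponding values after the other tiles were 74.1%, 73.8% and 74.5% and 74.6%, 75.3% and 75.3%, so that the former were higher in 6 of 6 samples. At a distance of 5 tiles before, the means were 76.6% and 74.4%, and at 100 tiles before they were 75.5% and 74.7%. By the rule, no CpG-dense tile lies within 3 tiles of either kind. After the other distal CpG-poor tiles, the mean was 75.8% at 2 tiles and 74.4% at 5.

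The share of highly methylated tiles varied over a few percentage points with the number of CpGs. Among distal CpG-poor tiles the share was 37.5% with 5 CpGs, 38.6% with 7 or 8 and 35.5% with 19. It was lower close to dense sequence. At 4 to 9 tiles from the nearest dense tile it was 35.7%, and from 10 tiles on it lay between 37.5% and 38.1%. Within 3 tiles of a dense tile, where the rule admits none, 28.8% of 99808 CpG-poor tiles reached 85%. The median distance to the nearest dense tile was 44 tiles for the distal methylated tiles and 43 for the other distal CpG-poor tiles.

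The chromosomes differed in a way that each sample showed. Highly methylated tiles made up 34.1% of the distal CpG-poor tiles on chromosome 10, 34.3% on chromosome 12 and 34.8% on chromosome 1, but 40.9% on chromosome 13. Since these values pool the samples, the share of distal CpG-poor tiles at 85% or more was also counted in each sample alone. On chromosome 10 it was 35.3%, 39.5% and 39.0% in the iron-sufficient and 38.5%, 42.9% and 38.3% in the iron-deficient replicates. On chromosome 13 it was 41%, 44.5% and 44.4% in the iron-sufficient and 44.6%, 48.2% and 44.7% in the iron-deficient replicates, and thus higher in 6 of 6 samples. Chromosomes 1, 10 and 12 had the 3 lowest shares in each of the 6 samples, and chromosomes 11, 13, 15 and 18 were among the highest 5 in each. These chromosomes were named after their values had been seen. The median number of CpGs per distal methylated tile was 9 on chromosomes 2 and 11, 11 on chromosomes 10, 19 and 20, 12 on chromosome 12 and 10 on the other autosomes. The part of the number of CpGs in the shares was not tested. Within 3 Mb of the last listed tile of a chromosome, 8327 of 23353 distal CpG-poor tiles (35.7%) were highly methylated, compared with 37.6% elsewhere.

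**Figure D5:**
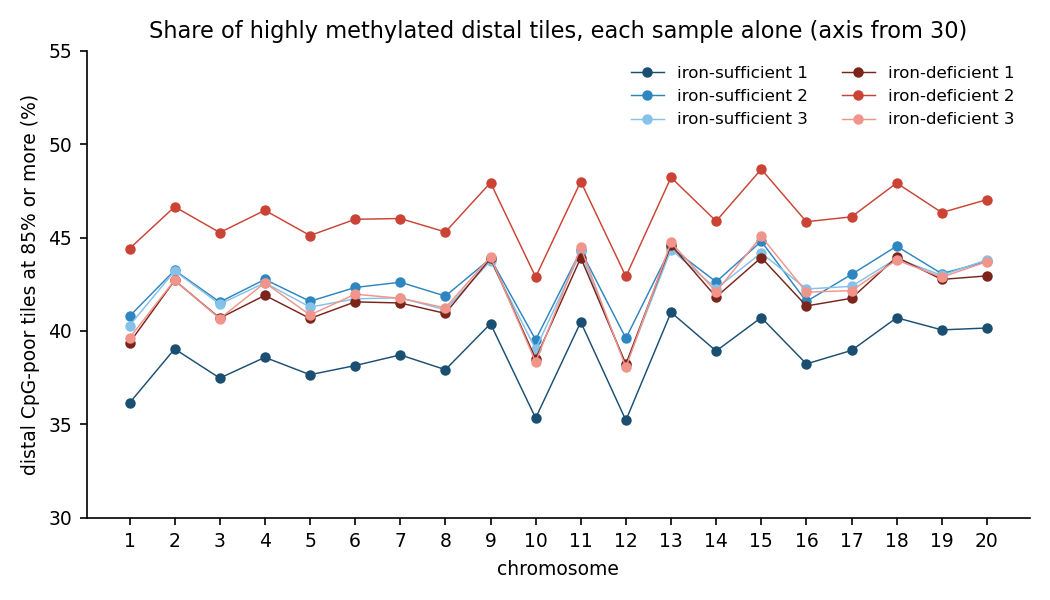
Share of distal CpG-poor tiles with a methylation of at least 85% (y axis, percent, from 30) on each of the 20 autosomes (x axis), counted in each sample alone, with 1 line per sample. The lines run nearly parallel, with low values on chromosomes 1, 10 and 12 in all 6 samples.

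The difference between the diets did not vary much over the chromosomes. The mean over the tiles was higher in the iron-deficient group on 20 of 20 chromosomes, by 0.834 percentage points on chromosome 19 to 1.06 on chromosome 15. The groups overlapped on each of them. Iron-sufficient replicate 1 had the lowest and iron-deficient replicate 2 the highest value on all 20 chromosomes, so the chromosomes repeat the difference between libraries and are not replicates of the diet.

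Finally, the tiles were compared with other tiles of at least 85% pooled methylation and the same read minimum. These were 28771 CpG-poor tiles within 3 tiles of a dense tile, 43499 tiles of 20 to 29 CpGs and 7285 tiles of 30 or more CpGs. The last 2 sets were taken at any distance from other dense tiles. They can thus differ from the distal methylated tiles both in CpG number and in nearness to dense sequence. Together with coverage in the 684086 distal CpG-poor tiles under 85%, 10 comparisons were made within each sample by two-sided exact sign-flip permutation tests over the 6 samples, which cannot give less than 0.0312. None of the 10 passed the threshold after adjustment (smallest adjusted p = 0.104 by the exact permutation tests). With this floor, a comparison cannot pass after adjustment over 10 unless most of the others are at the floor too, so this result decides little. Coverage per CpG was 27.3 reads in the distal methylated tiles and 33.2 in tiles of 20 to 29 CpGs, and lower in 6 of 6 samples by 5.9 reads ± 2.1 (SD, n = 6; exact permutation p = 0.0312). Compared with distal CpG-poor tiles under 85%, it was lower by 0.766 reads ± 0.15 (SD, n = 6; exact permutation p = 0.0312) in 6 of 6 samples. From near CpG-poor tiles it differed by -0.81 reads ± 0.471 (SD, n = 6; exact permutation p = 0.0625). From tiles of 30 or more CpGs it differed by -3.5 reads ± 2.19 (SD, n = 6; exact permutation p = 0.0625). Both had this direction in 5 of 6 samples, and iron-sufficient replicate 2 went the other way. The rule sets a minimum of reads per tile, which asks for more reads per CpG where CpGs are few. With at least 100 reads in each sample, the difference was -4.23 reads from tiles of 20 to 29 CpGs and -0.674 from distal tiles under 85%. It was then -0.162 from near CpG-poor tiles and -1.64 from tiles of 30 or more CpGs. What part the minimum had in these differences was not tested.

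The make-up of single CpGs was compared in the same sets. Mixed CpGs made up 25.2% in the distal methylated tiles and 25.7% in CpG-poor tiles near dense sequence. The difference of -0.469 percentage points ± 0.298 (SD, n = 6) had the same sign in 6 of 6 samples (exact permutation p = 0.0312, adjusted p = 0.104). Tiles of 30 or more CpGs had 23.9% mixed CpGs, 1.31 percentage points ± 1.56 (SD, n = 6) less than the distal methylated tiles, with the difference in this direction in 4 of 6 samples (exact permutation p = 0.125, adjusted p = 0.179). The pooled level that chose these sets rests on the same reads, so the tests are not independent of the choice of tiles. When each sample was read in tiles chosen by the other 5, the difference from tiles of 30 or more CpGs was 2.54 percentage points (exact permutation p = 0.0312). That from near CpG-poor tiles was then -0.323 percentage points (exact permutation p = 0.0625). Tiles chosen this way are no longer matched in the level of the sample read. The spread between samples fell with the number of CpGs, so the sets can lose different amounts in that sample. These p-values thus do not decide whether the make-up differs, and the part of the level was not tested. In the mean over tiles, the iron-deficient group was higher by 1.02 percentage points in the near CpG-poor tiles, by 0.929 in tiles of 20 to 29 CpGs and by 0.852 in tiles of 30 or more CpGs (two-sided exact permutation tests, p = 0.3, 0.2 and 0.1). The differences between sets in this value were not tested. The groups overlapped in the first 2 sets but not in the last, with 89.9%, 89.6% and 90.2% in the iron-sufficient and 90.6%, 91.2% and 90.4% in the iron-deficient replicates.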

How the data were processed

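WGBS was analysed in 3 iron-deficient and 3 iron-sufficient hippocampal samples of rat pups, with groups and replicate numbers taken from the sample titles. The authors removed adapters and used BS Seeker to align the reads to rn4. Each CpG has 1 value for both strands, and bases covered by both mates of a fragment count once, from the first mate. The deposited fraction is the share of methylated reads at a CpG, and the deposited coverage is a count of reads, neither normalized nor smoothed. The sources used here do not state whether duplicate reads were removed or whether positions count from 0 or 1. Methylated counts were fraction times coverage, and each product was whole to 0.01 reads.

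Counts were summed per tile of 1000 nucleotides in Python 3.11.15 (numpy 2.4.6, pandas 2.3.3). Tiles with at least 5 CpGs and 50 reads in each sample were tested in R 4.3.3 with edgeR 4.0.16. Its quasi-likelihood test (glmQLFit, glmQLFTest) used a single dispersion for all tiles and a term for each sample, and p-values were adjusted by the Benjamini-Hochberg method over all tiles tested. The alternative was limma 3.58.1 on log2((methylated + 1)/(unmethylated + 1)). The edgeR step was tested on simulated data, where after adjustment it missed most of the tiles made to fall by 20, 40 or 60 percentage points. For values per sample, exact permutation tests were two-sided. Other alternatives changed the read minimum, the pooled level, the tile borders, the CpGs used, the number of thinned reads and the samples included. Named tiles were the 3 largest rises and falls among tiles with separated groups, the 3 largest standard deviations, tiles at the threshold, the 3 longest runs and tiles with most low CpGs. Tiles, lists and tests were chosen with earlier results of these data known. No rn4 sequence or annotation was used here.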

Additional observations from a re-analysis of the deposited data

How the results depend on the processing

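The alternatives with held-out tiles, with the unweighted mean and with the level relative to all tiles were chosen after seeing the data. The difference of 0.966 percentage points in the mean over the distal methylated tiles kept its direction under all alternatives. It lay between 0.0735 (relative to all tiles) and 0.997 (pooled level of at least 80%), and between 0.254 and 1.46 with each sample left out. In the tile test no alternative gave a tile with an adjusted p-value of at most 0.05. That says nothing about stability, since on simulated data the edgeR test called 0 of 200 tiles that fell by 20 percentage points. The share with an unadjusted p-value under 0.05 lay between 1.9% and 4.29% (higher) and between 0.951% and 3.94% (lower) with each sample left out, and was 2.5% (lower) with limma. Of all 1359223 tiles tested, 19921 to 31756 were higher and 10011 to 30261 lower with each sample left out. With limma 1.66% of all tiles were lower. With only CpGs of 10 reads in all samples, 318854 of the tiles remained. Of these, 3.86% instead of 5.95% had separated groups with higher values and 2.96% instead of 3.6% with lower values. The share over all tiles tested with this choice of CpGs is not given here, and the cause was not tested.

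The group differences in single-CpG make-up had no stable direction. With each sample left out they lay between -4.21 and 4.52 percentage points for fully methylated, -4.79 and 5.77 for mixed and -1.56 and 0.266 for unmethylated CpGs. The first 2 changed sign without iron-sufficient replicate 1 (-4.21 and 5.77) or iron-deficient replicate 2 (-2.59 and 3.76), and the third without iron-sufficient replicate 2 (0.266). With CpGs of 10 reads in all samples the difference in mixed CpGs was 0.139.

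Of the comparisons with tiles of like methylation, the difference in mixed CpGs from near CpG-poor tiles was -0.469, and -0.304 with 100 reads per sample and -0.323 with held-out tiles, where its exact p-value was above the threshold (exact permutation p = 0.0625 each). From tiles of 30 or more CpGs it was 1.31, but 1.85 with 100 reads per sample and 2.54 with held-out tiles, and from tiles of 20 to 29 CpGs it was 0.914 with held-out tiles instead of 0.0536 (exact permutation p = 0.0312 for each of these alternatives). Held-out tiles are not matched in the level of the sample read, so their p-values do not decide whether the make-up differs. For unmethylated CpGs, held-out tiles gave 0.0990 instead of 0.0232 from near tiles and 0.626 instead of 0.171 from tiles of 30 or more CpGs. From tiles of 20 to 29 CpGs the sign turned, from -0.0501 to 0.286. Thinning to 20 reads per CpG turned the sign from near tiles, from 0.0232 to -0.00192. It gave 0.00588 from tiles of 30 or more CpGs and -0.145 from tiles of 20 to 29 CpGs. The cause was not tested. With a sample left out, 5 samples cannot give less than p = 0.0625 in the exact permutation test. Coverage per CpG then differed by -6.60 to -5.37 reads from tiles of 20 to 29 CpGs and by -0.808 to -0.734 from distal tiles under 85%. The difference in mixed CpGs was -0.55 to -0.369 from near tiles and -0.144 to 0.239 from tiles of 20 to 29 CpGs, negative without iron-sufficient replicate 1 (-0.144) or iron-deficient replicate 3 (-0.0147). From tiles of 30 or more CpGs it was 0.854 (without iron-sufficient replicate 1) to 1.68.

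In the replicate block, which pairs samples by number, the difference in the mean was 0.966 percentage points (exact sign-flip permutation test over 3 pairs, p = 0.5), and edgeR gave 0 tiles at an adjusted p-value of at most 0.05, with 2.56% higher and 1.52% lower at an unadjusted one under 0.05. Of all 1359223 tiles tested, 21547 were higher and 13105 lower at the latter threshold. The deviations of same-numbered samples from their group means had correlations of -0.000541 to 0.00189 over the tiles. For differently numbered samples they were -0.00248 to 0.00156. Over all tiles tested the ranges were 0.000584 to 0.00451 and -0.00368 to 0.000544. Whether same-numbered samples share a litter or a batch was not tested. The limits are those of 6 samples and of reads that may be copies of 1 molecule.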
